A study of Homo sapiens with 14 samples.

Results

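The genes for 6 insulin-like growth factor binding proteins, IGFBP2 to IGFBP7, were followed through 11 RNA libraries of SH-EP cells. They were taken by symbol, as 6 of the 61533 genes counted, and all 6 passed the filter on low counts in a test of 16056 genes. They had been picked with the knowledge that IGFBP5 differs strongly between the lines studied, so their difference between lines is described below without a test. Their response to lenalidomide played no part in that choice and was tested.

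SH-EP is an established human neuroblastoma line that grows attached to the dish. Messenger RNA selected by its poly(A) tail was sequenced from a line carrying n-Myc SPARK-ON and from a line labelled n-Myc control. The SPARK-ON line is a single clone that expresses n-Myc SPARK-ON below the level at which it separates into condensates, and lenalidomide is the drug added to bring on that phase separation at unchanged protein concentration, per the series design. The control line lacks SPARK-ON and serves to show what lenalidomide does by itself. There were 3 libraries of SPARK-ON cells with lenalidomide, 3 of SPARK-ON cells in DMSO, 2 of control cells with lenalidomide and 3 of control cells in DMSO. DMSO is the solvent of the drug. No dose is given in the labels, which add an unexplained "ON" to each treatment. They also leave unsaid whether replicates were cultured apart, so a p-value here reflects the spread among libraries, which may be technical. Because the SPARK-ON line is 1 clone, a difference between lines that comes from SPARK-ON and one that comes from the clone cannot be told apart.

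IGF binding proteins are secreted proteins that hold the growth factors IGF1 and IGF2 outside the cell and so control how much of them reaches the receptor IGF1R. IGFBP2 to IGFBP6 bind IGFs tightly, while IGFBP7 is a more distant relative with low affinity for them. Proteases such as PAPPA cut some binding proteins and release the growth factor, and several family members also bind integrins, proteoglycans or the extracellular matrix. In neuroblastoma, IGF2 is known as an autocrine growth factor.

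Total counts ran from 6614671 to 19244198 in SPARK-ON libraries and from 16310438 to 21511684 in control libraries, so that 3 reads stood for 0.143 to 0.441 CPM, the reads of a gene per 1000000 reads of its library after scaling. A pair of libraries stood apart on principal components of log2 CPM. SPARK-ON lenalidomide replicate 3 had the lowest total and lay at -69.5 on the second component (6.08% of the variance), where the other 10 lay between -2.72 and 17.4. Control DMSO replicate 1 lay at -51.7 on the third component (5.01% of the variance), where the other control libraries lay between -19.2 and 31.8. The transcript of MYCN, which encodes n-Myc, averaged 2508 ± 101 CPM in SPARK-ON cells with lenalidomide (SD, n = 3), 2277 ± 109 CPM in SPARK-ON cells in DMSO (n = 3), 2546 ± 306 CPM in control cells with lenalidomide (n = 2) and 2426 ± 293 CPM in control cells in DMSO (n = 3). That of CRBN, which encodes cereblon, had 242 to 285 CPM in SPARK-ON and 355 to 395 CPM in control libraries, without overlap. What part the CRBN level has in the lenalidomide responses was not tested. Of 7 markers of the mesenchymal neuroblastoma state that SH-EP represents, 6 were above 5 CPM in every library, with sums of 1238 to 1402 CPM in SPARK-ON and 2516 to 2715 CPM in control libraries, and what part this has in the differences between lines was not tested. VIM (501 to 576 CPM in SPARK-ON and 1083 to 1361 CPM in control libraries) and CD44 (484 to 560 CPM in SPARK-ON and 1110 to 1197 CPM in control libraries) made up most of these sums. FN1 was higher in SPARK-ON libraries (119 to 157 CPM, against 58.3 to 103.6 CPM in control libraries), and YAP1, PRRX1 and SNAI2 overlapped between lines. NOTCH3 was at or below 1 CPM. Of 7 adrenergic markers none was above 5 CPM in every library, and the sums were 5.001 to 8.28 CPM in SPARK-ON and 6.45 to 8.73 CPM in control libraries. GATA3 made up most of these sums, with 4.74 to 6.90 CPM in SPARK-ON and 6.26 to 8.73 CPM in control libraries. Of 7 markers of other cells (immune, endothelial, epithelial and liver) 6 were at or below 1 CPM in every library, with sums of 0.409 to 2.94 CPM in SPARK-ON and 0 to 0.416 CPM in control libraries. The remaining marker, EPCAM, had 0.06 to 2.06 CPM in SPARK-ON and 0 CPM in control libraries. In bulk RNA, fewer cells that express a gene and less of its RNA per cell cannot be told apart.

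The positions of the 6 genes come from GENCODE 29 on GRCh38. IGFBP2 (ENSG00000115457.10, chr2:216632828-216664436, plus strand) and IGFBP5 (ENSG00000115461.5, chr2:216672105-216695525, minus strand) are neighbours that point at each other, with 7668 bases between their ends. IGFBP3 (ENSG00000146674.16) lies at chr7:45912245-45921874 on the minus strand. IGFBP4 (ENSG00000141753.7) lies at chr17:40443461-40457731 on the plus strand. IGFBP6 (ENSG00000167779.9) lies at chr12:53097436-53102345 on the plus strand. IGFBP7 (ENSG00000163453.11) lies at chr4:57030773-57110385 on the minus strand. None of the sources used here gives the strand setting of the counting, so reads of genes that overlap cannot be assigned with certainty. IGFBP5 is overlapped by AC007563.2, which had 0 reads in every library. IGFBP7 is overlapped by IGFBP7-AS1 and UBE2CP3, with at most 3 reads each, and by POLR2B, an RNA polymerase subunit gene on the other strand that had 481 to 521 CPM in SPARK-ON and 526 to 626 CPM in control libraries.

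The bases just before the start of IGFBP5, IGFBP4 and IGFBP2 are shown because IGFBP5 has the largest difference between lines of the 6 genes, IGFBP4 is the gene whose lenalidomide response is described in most detail below, and IGFBP2 is the neighbour of IGFBP5. Each run is the 250 bases before the start in the RefSeq promoter table of GRCh38.p14, read 5′ to 3′ on the strand of the gene. The windows are chr2:216695550-216695799 for IGFBP5, chr17:40443200-40443449 for IGFBP4 and chr2:216633170-216633419 for IGFBP2, the last for the start 25 bases from that of the principal GENCODE transcript. Capitals mark matches to 3 motifs searched on both strands: CACGTG, the E-box that Myc proteins with their partner MAX are known to favour, CANNTG, the general E-box that includes it, and TATAAA, the TATA box.
IGFBP5: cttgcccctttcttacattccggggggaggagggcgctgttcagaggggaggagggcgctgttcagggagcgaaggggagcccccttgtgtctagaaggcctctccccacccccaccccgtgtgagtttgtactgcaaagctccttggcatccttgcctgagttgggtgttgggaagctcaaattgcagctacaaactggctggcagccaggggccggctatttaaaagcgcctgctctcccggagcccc
IGFBP4: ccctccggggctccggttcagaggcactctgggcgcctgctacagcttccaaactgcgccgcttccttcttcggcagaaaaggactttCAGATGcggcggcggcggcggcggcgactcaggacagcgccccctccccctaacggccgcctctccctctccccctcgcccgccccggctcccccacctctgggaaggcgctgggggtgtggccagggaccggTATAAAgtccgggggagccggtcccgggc
IGFBP2: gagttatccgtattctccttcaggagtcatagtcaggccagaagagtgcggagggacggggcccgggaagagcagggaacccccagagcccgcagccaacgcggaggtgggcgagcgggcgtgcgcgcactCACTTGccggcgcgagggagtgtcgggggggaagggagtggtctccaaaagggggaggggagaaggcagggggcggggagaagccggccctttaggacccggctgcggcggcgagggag
None of the 3 windows holds CACGTG, which 6.35% of 35116 promoter windows of this length hold. The IGFBP5 window holds no exact match to any of the 3 motifs. Near matches, such as variants of the TATA box, were not searched. The IGFBP4 window has CANNTG at -162 and TATAAA at -29, and the IGFBP2 window has CANNTG at -119, counted in bases from the start. CANNTG occurs in 61.8% and TATAAA in 10.7% of all windows. The G and C content was 61.2% before IGFBP5, 71.6% before IGFBP4 and 69.2% before IGFBP2, against a median of 58.0% over all windows. The table held entries for 5 of the 6 genes, and the windows of IGFBP3 and IGFBP6 also lack CACGTG.

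IGFBP5 was almost absent from the SPARK-ON line and plentiful in the control line. IGFBP5 is a matrix-binding member of the family that is cut by PAPPA and its relative PAPPA2. It had 2.18, 2.45 and 2.94 CPM in SPARK-ON cells with lenalidomide and 1.32, 2.11 and 1.53 CPM in SPARK-ON cells in DMSO. It had 163 and 154 CPM in control cells with lenalidomide and 132, 182 and 163 CPM in control cells in DMSO. These levels rest on 20 to 40 reads per SPARK-ON library and 2430 to 3414 reads per control library, and every SPARK-ON library was below every control library. The log2 difference, SPARK-ON over control, was -6.59 (SE 0.16) in DMSO, or 96.6-fold lower, and -6.02 (SE 0.16) with lenalidomide, or 65.0-fold lower. Of the 16056 genes, 17 had a log2 difference this low or lower in DMSO and 20 with lenalidomide, IGFBP5 included. Without SPARK-ON lenalidomide replicate 3 the difference with lenalidomide was -6.09, and without control DMSO replicate 1 that in DMSO was -6.72.

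IGFBP4 was, per kilobase of exon, the most abundant of the 6 transcripts in every library, and it was higher in SPARK-ON cells. IGFBP4 is known mainly as an inhibitor of IGF action, which PAPPA relieves by cutting it. It had 369, 379 and 357 CPM in SPARK-ON cells with lenalidomide and 312, 313 and 360 CPM in SPARK-ON cells in DMSO. It had 81.4 and 91.9 CPM in control cells with lenalidomide and 122, 106 and 114 CPM in control cells in DMSO. All SPARK-ON libraries lay above all control libraries. The log2 difference was 1.52 (SE 0.080) in DMSO, 2.88-fold higher in SPARK-ON cells, and 2.09 (SE 0.095) with lenalidomide, 4.25-fold higher.

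IGFBP7 followed the same order. It is a secreted protein of the extracellular matrix and of blood vessel walls. It had 212, 220 and 200 CPM in SPARK-ON cells with lenalidomide and 189, 190 and 198 CPM in SPARK-ON cells in DMSO. It had 63.0 and 76.3 CPM in control cells with lenalidomide and 76.7, 57.5 and 65.8 CPM in control cells in DMSO. The lines did not overlap, and the log2 difference was 1.53 (SE 0.097), or 2.88-fold higher in SPARK-ON cells, in DMSO and 1.60 (SE 0.11), or 3.03-fold higher, with lenalidomide.

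IGFBP6, which prefers IGF2 to IGF1, was a minor transcript that was also higher in SPARK-ON cells. It had 12.7, 17.0 and 12.7 CPM in SPARK-ON cells with lenalidomide and 12.8, 9.90 and 13.3 CPM in SPARK-ON cells in DMSO. It had 6.20 and 8.20 CPM in control cells with lenalidomide and 7.76, 4.34 and 6.16 CPM in control cells in DMSO. The ranges of the lines did not overlap, and the log2 difference was 0.98 (SE 0.20) in DMSO and 0.98 (SE 0.22) with lenalidomide, 1.97-fold higher in SPARK-ON cells in both.

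IGFBP2, a major IGF carrier that also binds integrins, was lower in SPARK-ON cells, as was its neighbour IGFBP5, but to a far smaller extent. It had 109, 106 and 99.1 CPM in SPARK-ON cells with lenalidomide and 105, 106 and 111 CPM in SPARK-ON cells in DMSO. It had 163 and 175 CPM in control cells with lenalidomide and 191, 132 and 156 CPM in control cells in DMSO. The lines did not overlap, and the SPARK-ON libraries lay closer together than the control libraries did. The log2 difference was -0.57 (SE 0.10) in DMSO and -0.69 (SE 0.11) with lenalidomide. Without control DMSO replicate 1, the highest IGFBP2 library, the difference in DMSO was -0.43.

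IGFBP3, the main IGF carrier of the blood, was low in both lines and its ranges overlapped between them. It had 10.2, 9.72 and 9.27 CPM in SPARK-ON cells with lenalidomide and 6.36, 8.64 and 6.39 CPM in SPARK-ON cells in DMSO. It had 9.74 and 8.14 CPM in control cells with lenalidomide and 7.38, 5.95 and 6.50 CPM in control cells in DMSO. The log2 difference between lines was 0.10 (SE 0.16) in DMSO and 0.13 (SE 0.18) with lenalidomide, and its sign in DMSO changed to -0.052 without SPARK-ON DMSO replicate 2.

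**Figure D1:**
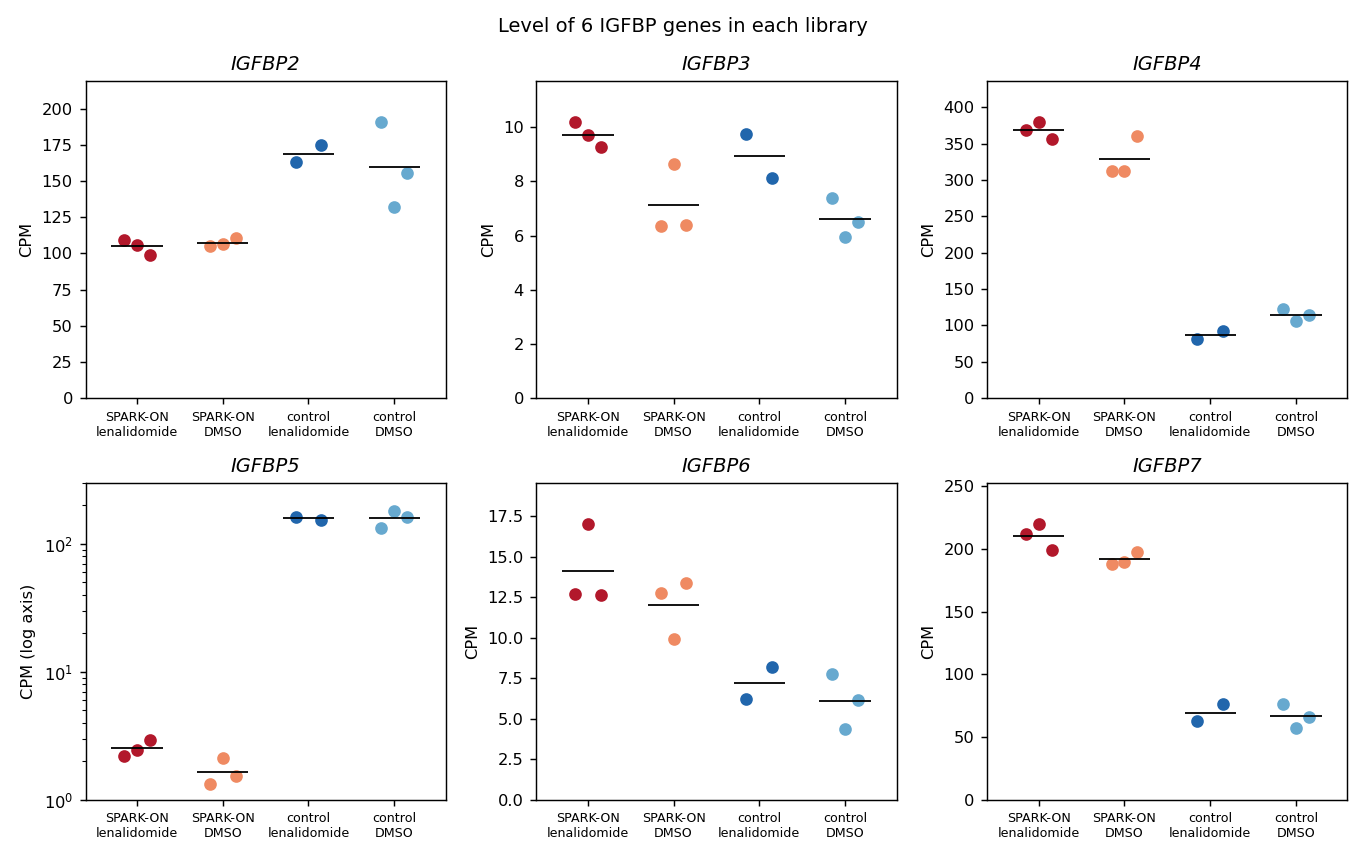
Level of each IGFBP gene in CPM in each library (points) with the mean of its group (line), for SPARK-ON lenalidomide (n = 3), SPARK-ON DMSO (n = 3), control lenalidomide (n = 2) and control DMSO (n = 3). The IGFBP5 panel has a log axis, on which the SPARK-ON libraries sit between 1.32 and 2.94 CPM and the control libraries between 132 and 182 CPM.

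Of the 6 genes, 3 were higher in SPARK-ON cells without overlap of the groups (IGFBP4, IGFBP6 and IGFBP7) and 2 were lower (IGFBP2 and IGFBP5), in DMSO and with lenalidomide. Among all genes tested, 26.3% were higher and 24.6% lower without overlap in DMSO, and 30.4% and 29.3% with lenalidomide, and 41.6% and 39.4% of genes passed the test of the difference between lines. Since the genes were chosen with this difference known, nothing is read from their count. Without control DMSO replicate 1 the differences in DMSO were 1.57 for IGFBP4, 1.17 for IGFBP6 and 1.63 for IGFBP7. Without SPARK-ON lenalidomide replicate 3 those with lenalidomide were 2.11 for IGFBP4, 1.04 for IGFBP6 and 1.64 for IGFBP7.

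Levels of different genes were compared as CPM per kilobase of merged exons. In SPARK-ON libraries the order of the medians was IGFBP4 with 163, IGFBP7 with 103, IGFBP2 with 22.3, IGFBP6 with 9.45, IGFBP3 with 1.96 and IGFBP5 with 0.333 CPM per kilobase. No adjacent ranges overlapped in that order. In control libraries the order was IGFBP4 with 48.3, IGFBP2 with 34.2, IGFBP7 with 34.1, IGFBP5 with 25.3, IGFBP6 with 4.60 and IGFBP3 with 1.62 CPM per kilobase. There IGFBP2 (27.8 to 39.98) and IGFBP7 (29.8 to 39.7) were not separated. The range of IGFBP4 (37.0 to 55.6) reached into both, and that of IGFBP5 (20.5 to 28.2) reached into that of IGFBP2. IGFBP5 was thus the lowest of the 6 in the SPARK-ON line and the fourth highest in the control line.

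The 6 transcripts together came to 272 to 324 CPM per kilobase in SPARK-ON libraries and 136 to 163 in control libraries. IGFBP4 made up 52.0% to 54.4% of that sum in SPARK-ON libraries and 27.2% to 34.8% in control libraries. IGFBP7 made up 34.1% to 36.1% in SPARK-ON libraries and 21.5% to 26.4% in control libraries. The family's RNA in SPARK-ON cells was mostly that of these 2 genes. IGFBP2 made up 6.87% to 8.19% in SPARK-ON libraries and 20.0% to 25.2% in control libraries. IGFBP5 made up 0.0752% to 0.153% in SPARK-ON libraries and 12.5% to 20.4% in control libraries. The shares of IGFBP6 were 2.70% to 3.90% in SPARK-ON and 2.33% to 4.06% in control libraries, and those of IGFBP3 were 0.464% to 0.712% in SPARK-ON and 0.939% to 1.57% in control libraries. Of the 6, IGFBP6 alone kept overlapping shares.

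**Figure D2:**
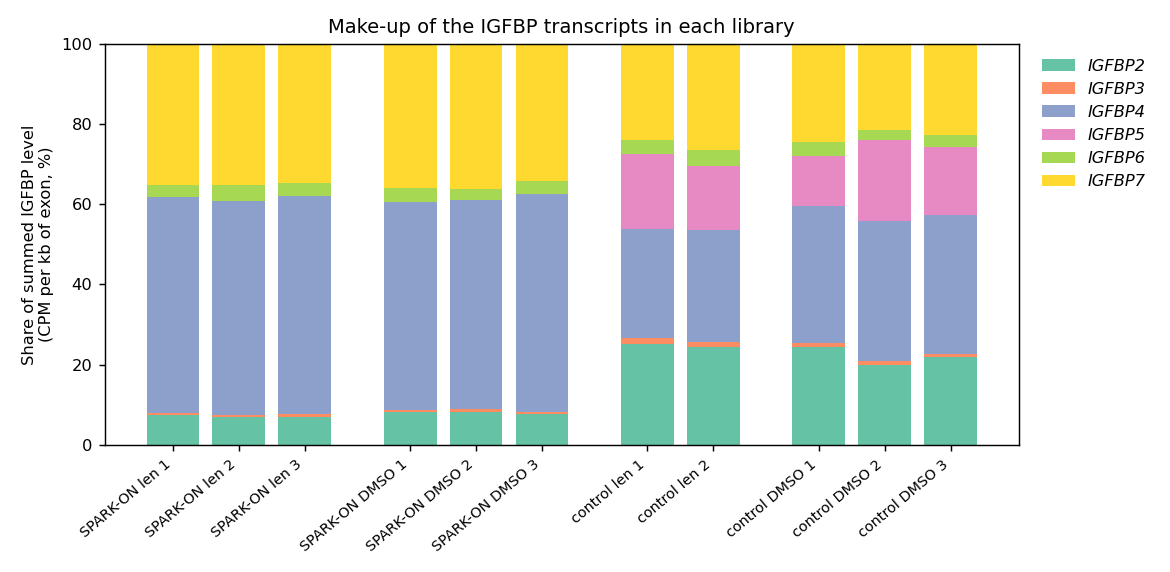
Share of each IGFBP gene in the summed level of the 6 genes (CPM per kilobase of exon, %) in each of the 11 libraries. IGFBP4 takes 52.0% to 54.4% in SPARK-ON libraries and 27.2% to 34.8% in control libraries, and the IGFBP5 segment (12.5% to 20.4% in control libraries) is too thin to see in SPARK-ON libraries.

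Within the SPARK-ON line the question was whether lenalidomide, which brings on phase separation of n-Myc there, moved these genes. None of the 6 passed edgeR's quasi-likelihood test after Benjamini-Hochberg adjustment at 0.05, in a comparison where 0.0685% of the 16056 genes passed. At an unadjusted p under 0.05 there were 3 of 6, all higher with lenalidomide, against 5.36% of all genes. That count was 0 without DMSO replicate 1, 1 without DMSO replicate 3, lenalidomide replicate 2 or lenalidomide replicate 3, and 2 without either of the other libraries. The 6 log2 changes had a median of 0.20, beside 0.0065 over all genes tested, and 5 of 6 were positive.

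IGFBP3 averaged 9.72 ± 0.457 CPM in SPARK-ON cells with lenalidomide and 7.13 ± 1.31 CPM in SPARK-ON cells in DMSO (SD, n = 3 each), a log2 change of 0.46 (SE 0.16, 95% interval 0.12 to 0.80, edgeR adjusted p = 0.775), or 0.49 without lenalidomide replicate 3. Every lenalidomide library was above every DMSO library. IGFBP5 averaged 2.52 ± 0.386 CPM with lenalidomide and 1.66 ± 0.410 CPM in DMSO, a log2 change of 0.57 (SE 0.25, 95% interval 0.05 to 1.09, edgeR adjusted p = 0.871). Its groups did not overlap either, but the levels rest on 20 to 40 reads a library, and without SPARK-ON lenalidomide replicate 3, the library with 20 reads, the change was 0.50. IGFBP4 averaged 368 ± 11.3 CPM with lenalidomide and 328 ± 27.7 CPM in DMSO, a log2 change of 0.17 (SE 0.078, 95% interval 0.0023 to 0.33, edgeR adjusted p = 0.924), and its groups overlapped. IGFBP7 averaged 211 ± 10.2 CPM with lenalidomide and 192 ± 5.13 CPM in DMSO, a log2 change of 0.13 (SE 0.094, edgeR adjusted p = 0.986) without overlap of the groups. Groups that do not overlap, higher with lenalidomide, were seen for 3 of the 6 (IGFBP3, IGFBP5 and IGFBP7) and for 9.62% of all genes tested, and 0 of the 6 were lower without overlap, against 8.17% of genes. IGFBP6, with 14.1 ± 2.51 CPM with lenalidomide and 12.01 ± 1.85 CPM in DMSO, had a log2 change of 0.24 (SE 0.19, edgeR adjusted p = 0.990). IGFBP2, with 105 ± 5.19 CPM with lenalidomide and 107 ± 2.82 CPM in DMSO, had one of -0.03 (SE 0.10, edgeR adjusted p = 0.997).

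The variation between replicates differed between the lines. Its biological coefficient was 4.71% in SPARK-ON libraries, 12.9% in control libraries and 9.40% over all 11. When the 6 SPARK-ON libraries were fitted alone, 2.6% of 14652 genes passed. IGFBP4 was then 1 of the genes called, at a log2 change of 0.16 (SE 0.044, edgeR adjusted p = 0.0231). IGFBP7 (edgeR adjusted p = 0.0984), IGFBP3 (edgeR adjusted p = 0.102) and the other 3 members did not pass with all 6 libraries. IGFBP7 passed without lenalidomide replicate 3 (edgeR adjusted p = 0.0407) and IGFBP3 without DMSO replicate 2 (edgeR adjusted p = 0.0382). The IGFBP4 call was lost without lenalidomide replicate 1 (edgeR adjusted p = 0.124), lenalidomide replicate 2 (0.170), DMSO replicate 1 (0.250) or DMSO replicate 2 (0.185). It held without lenalidomide replicate 3 (0.0183) or DMSO replicate 3 (0.000737). Over the 15 alternatives to the fit of all 11 libraries the adjusted p of IGFBP4 in SPARK-ON cells ran from 0.0231 to 1.0.

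In control cells, which lack SPARK-ON, none of the 6 genes passed edgeR's test, where 0.0436% of all genes did. At an unadjusted p under 0.05 there were 2 of 6, IGFBP3 higher and IGFBP4 lower with lenalidomide, against 4.82% of all genes. That count was 3 without control DMSO replicate 1, 2 without lenalidomide replicate 2 and 1 without any of the other 3 libraries. IGFBP4 averaged 86.6 ± 7.41 CPM in control cells with lenalidomide (SD, n = 2) and 114 ± 8.05 CPM in control cells in DMSO (n = 3), a log2 change of -0.40 (SE 0.090, 95% interval -0.59 to -0.21, edgeR adjusted p = 0.231). Without control DMSO replicate 1 it was -0.35 (edgeR adjusted p = 0.0868). Both lenalidomide libraries were below all DMSO libraries, as for 6.86% of genes tested. Whether IGFBP4 was called in control cells depended on the tool and on the filter on low counts. With single control libraries left out of edgeR's fit, 0 of the 6 genes were called. DESeq2 called IGFBP4 lower in control cells (adjusted p = 0.0190), where 0.144% of all genes passed. So did edgeR without a filter on low counts (adjusted p = 0.0237), where 0.0806% passed. In edgeR on the 5 control libraries alone 0% of 14666 genes passed, and IGFBP4 was not called (log2 change -0.40, adjusted p = 0.9999). Its adjusted p ran from 0.0190 to 1.0 over 14 alternatives. IGFBP3 averaged 8.94 ± 1.13 CPM with lenalidomide and 6.61 ± 0.722 CPM in DMSO, a log2 change of 0.43 (SE 0.18, 95% interval 0.06 to 0.80, edgeR adjusted p = 0.950) without overlap of the groups, as for 7.69% of genes tested. IGFBP5 averaged 159 ± 6.51 CPM with lenalidomide and 159 ± 25.2 CPM in DMSO, a log2 change of -0.0014 (SE 0.12, 95% interval -0.24 to 0.24). For IGFBP2, IGFBP6 and IGFBP7 the log2 changes were 0.08 (SE 0.11), 0.24 (SE 0.23) and 0.06 (SE 0.11), with overlapping groups.

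**Figure D3:**
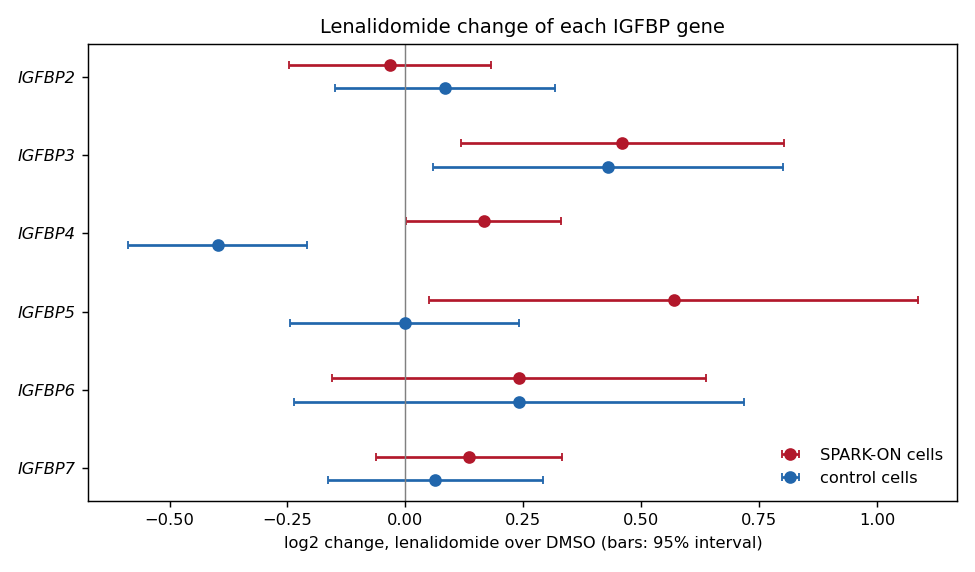
Log2 change of each IGFBP gene with lenalidomide over DMSO in the SPARK-ON line (n = 3 and 3) and the control line (n = 2 and 3), with 95% intervals from edgeR's fit of 11 libraries. IGFBP3 lies at 0.46 in the SPARK-ON line and 0.43 in the control line, while IGFBP4 lies at 0.17 in the SPARK-ON line and -0.40 in the control line.

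The design sets the response of SPARK-ON cells against that of control cells, so that effects of the drug shared by both lines drop out. None of the 6 genes passed it in edgeR, where 0% of all genes did, and 1 of 6 had an unadjusted p under 0.05, against 4.17% of genes. At an unadjusted p the count was 3 without control DMSO replicate 1, 2 without SPARK-ON DMSO replicate 2 or SPARK-ON lenalidomide replicate 1, and 1 without any of the others. That gene was IGFBP4, whose change in SPARK-ON cells exceeded its change in control cells by 0.56 on the log2 scale (SE 0.12, 95% interval 0.31 to 0.82, edgeR adjusted p = 0.725). DESeq2 called 3 of 33507 genes there (0.00895%), IGFBP4 among them at a difference of 0.57 (adjusted p = 0.0353). In edgeR it was 0.59 without SPARK-ON lenalidomide replicate 3 and 0.52 without control DMSO replicate 1 (adjusted p = 0.929 and 0.116), and over 19 alternatives its adjusted p ran from 0.0353 to 1.0. For IGFBP5 the difference was 0.57 (SE 0.27, 95% interval -0.0023 to 1.14, edgeR adjusted p = 1.0). For IGFBP3 it was 0.03 (SE 0.24, 95% interval -0.48 to 0.54), so a sizeable difference in either direction lies within the interval. IGFBP2, IGFBP6 and IGFBP7 had differences of -0.12 (SE 0.15), -0.00046 (SE 0.23) and 0.07 (SE 0.14).

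IGFBP3 and IGFBP6 had log2 changes of like size in both lines. With the lenalidomide effect averaged over the lines, a contrast added after these values were seen, the log2 change of IGFBP3 was 0.45 (SE 0.12, 95% interval 0.19 to 0.70, unadjusted p = 0.00164, edgeR adjusted p = 0.244), and its groups did not overlap within either line. That of IGFBP6 was 0.24 (SE 0.15, edgeR adjusted p = 0.899). None of the 6 passed in that contrast, where 0.199% of all genes did, and IGFBP3 was the 1 gene of the 6 at an unadjusted p under 0.05, against 6.32% of genes. The count at an unadjusted p was 3 without control DMSO replicate 1 or control DMSO replicate 2, and 1 or 2 without each other library.

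The rest of the IGF axis was covered by 49 further genes in 5 lists, 35 of which were tested. These lists were also chosen with earlier results of these data known. The p-values and counts given below for their difference between lines are therefore not independent support. The growth factors IGF1, IGF2 and INS, the hybrid INS-IGF2 transcript and the binding protein gene IGFBP1 had 0 reads in all 11 libraries, against the 3 reads (0.143 to 0.441 CPM) that a count of 0 allows. The receptor that the binding proteins control access to was present. IGF1R had 168 to 219 CPM in SPARK-ON libraries and 127 to 193 CPM in control libraries, with a log2 difference of 0.09 (SE 0.11, edgeR adjusted p = 0.510) in DMSO. IGF2R, which takes up IGF2 for breakdown, was higher in SPARK-ON cells, with 572 to 631 CPM in SPARK-ON and 212 to 348 CPM in control libraries (log2 difference 0.97, SE 0.13, edgeR adjusted p = 7.21e-06 in DMSO). The insulin receptor INSR had 19.3 to 25.3 CPM in SPARK-ON and 23.1 to 31.3 CPM in control libraries. It was lower in SPARK-ON cells with lenalidomide (log2 difference -0.52, edgeR adjusted p = 0.00360) and did not pass in DMSO (log2 difference -0.24, edgeR adjusted p = 0.0942).

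In DMSO 8 of the 35 axis genes were higher and 9 lower in SPARK-ON cells, against 21.1% and 20.4% of all genes tested. With lenalidomide there were 9 higher and 9 lower, against 19.7% and 19.7%. Of the 14 tested signal adapters 1 was higher and 7 lower in DMSO. The kinase gene AKT2 was lower, with 142 to 157 CPM in SPARK-ON and 236 to 248.6 CPM in control libraries (log2 difference -0.71, SE 0.066, edgeR adjusted p = 9.07e-08). GRB10, an adapter that dampens receptor signalling, was lower by a log2 difference of -0.45 (edgeR adjusted p = 3.40e-05), and SHC1, an adapter toward the Ras pathway, was higher at 0.80 (edgeR adjusted p = 2.36e-07).

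Of the 8 proteases of binding proteins and their inhibitors, 2 were higher and 2 lower in DMSO. PAPPA, which cuts IGFBP4, had 3.43 to 7.21 CPM in SPARK-ON and 4.04 to 7.33 CPM in control libraries and did not pass (log2 difference -0.30, SE 0.25, edgeR adjusted p = 0.367). HTRA1, a serine protease that carries an IGFBP domain itself, was lower in SPARK-ON cells, with 46.7 to 53.3 CPM in SPARK-ON and 100.3 to 109.5 CPM in control libraries (log2 difference -1.11, SE 0.077, edgeR adjusted p = 1.56e-09). ADAM28, a metalloprotease, was higher at a log2 difference of 2.41 (SE 0.34, edgeR adjusted p = 1.48e-05). Its levels were low, with 2.77 to 4.97 CPM in SPARK-ON and 0.434 to 1.20 CPM in control libraries, the latter on 8 to 19 reads a library.

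Of 4 tested partners 2 were higher and none lower. LRP1, an endocytic receptor that also binds IGFBP3, had 13.6 to 19.1 CPM in SPARK-ON and 2.50 to 4.93 CPM in control libraries (log2 difference 2.09, SE 0.19, edgeR adjusted p = 8.57e-08). Of 7 tested relatives that share the IGFBP domain 2 were higher and 1, HTRA1, lower. CCN3, a matricellular protein, was the axis gene with the largest positive difference in DMSO, with 28.99 to 39.4 CPM in SPARK-ON and 1.20 to 1.74 CPM in control libraries (log2 difference 4.38, SE 0.16, edgeR adjusted p = 2.61e-13). The same 8 genes had the smallest p with lenalidomide, where the log2 differences were 4.68 for CCN3, 2.28 for LRP1, 2.28 for ADAM28, 0.94 for IGF2R, 0.77 for SHC1, -0.51 for GRB10, -0.72 for AKT2 and -1.05 for HTRA1. PAPPA2, a relative of PAPPA that cuts IGFBP5, was also higher in SPARK-ON cells. Its log2 difference was 1.28 in DMSO (edgeR adjusted p = 0.0119) and 1.52 with lenalidomide (edgeR adjusted p = 0.0124). It was low, with 1.65 to 2.66 CPM in SPARK-ON and 0.526 to 1.31 CPM in control libraries, the latter on 11 to 22 reads a library.

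**Figure D4:**
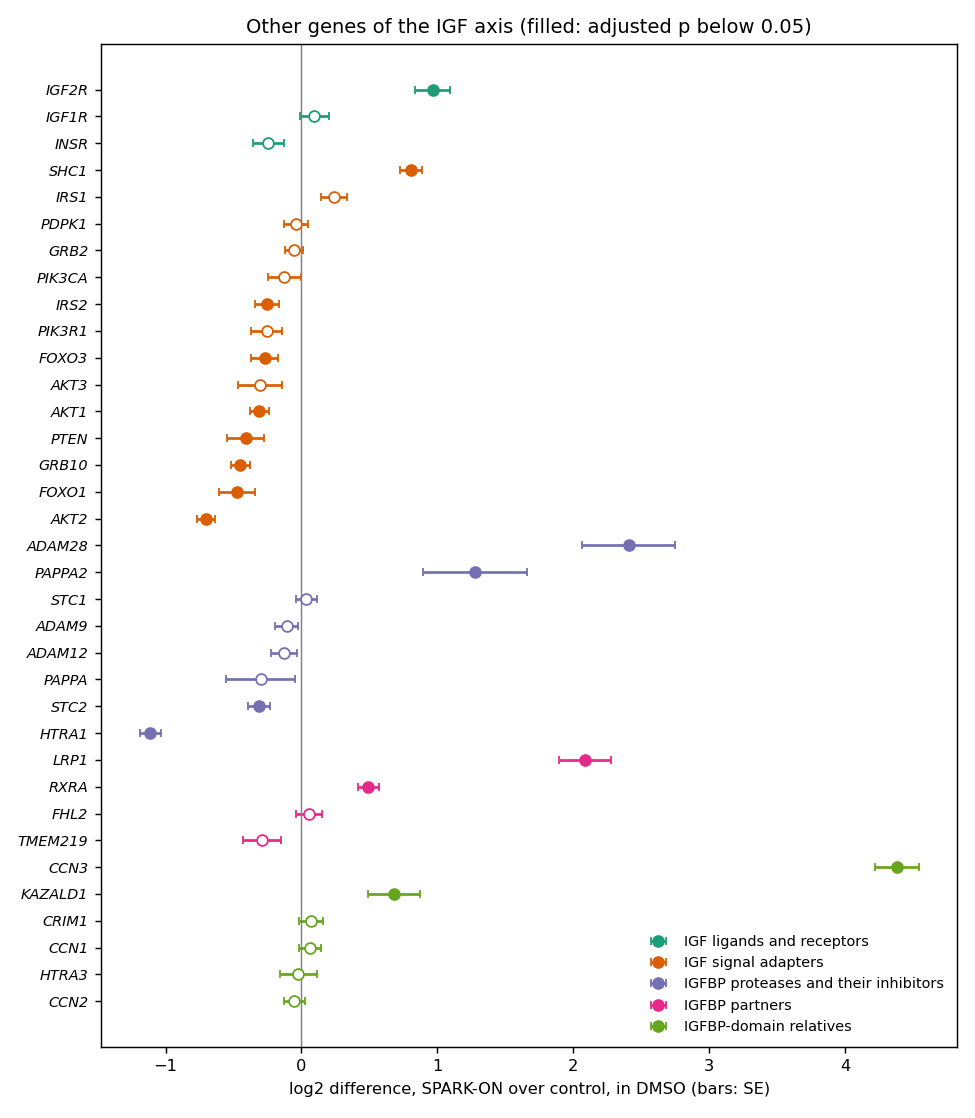
Log2 difference, SPARK-ON over control in DMSO (n = 3 each), with SE, for the 35 tested genes of the IGF axis that are not among the 6 binding proteins, by list. Filled points passed edgeR's test at an adjusted p below 0.05, 8 higher and 9 lower, from CCN3 at 4.38 to HTRA1 at -1.11.

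With lenalidomide none of the 35 axis genes passed in edgeR's fit of 11 libraries, in either line. At an unadjusted p under 0.05 there were 5 in the SPARK-ON line and 1 in the control line, all higher, against 5.36% and 4.82% of all genes. Without single libraries the count was 2 to 4 in the SPARK-ON line, lowest without DMSO replicate 2, and 1 to 5 in the control line, highest without DMSO replicate 1. In the difference between lines in the response none passed, with 0 at an unadjusted p under 0.05. This last count was 5 without control DMSO replicate 1, 2 without control lenalidomide replicate 2 and 0 or 1 without each other library. In the fit of the 6 SPARK-ON libraries alone 5 were called, all higher with lenalidomide, against 2.6% of genes tested. They were IGF1R at a log2 change of 0.27 (edgeR adjusted p = 2.82e-05), CRIM1 at 0.23 (0.00196), CCN2 at 0.28 (0.00409), CCN1 at 0.27 (0.00418) and ADAM12 at 0.18 (0.0197). Without single libraries 2 to 5 of them were called. Both IGF1R and CRIM1 were called again whichever 1 of the 6 libraries was left out. CCN1 and CCN2 were lost without lenalidomide replicate 2 (edgeR adjusted p = 0.0612 for CCN1 and 0.135 for CCN2) and without DMSO replicate 1 (0.0546 for CCN1 and 0.0502 for CCN2). ADAM12 was lost in 4 of the 6 omissions, with an edgeR adjusted p of up to 0.158, and held without lenalidomide replicate 2 or DMSO replicate 3. In control cells the fit of 11 libraries put IGF1R at 0.15, CRIM1 at 0.07, CCN2 at 0.24, CCN1 at 0.05 and ADAM12 at -0.02. CCN2 was the axis gene at an unadjusted p under 0.05 in control cells with all libraries. DESeq2 called 0 of the axis genes in SPARK-ON cells, 0 in control cells and 0 in the difference.

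The neighbours of IGFBP5 were looked at next, as a description of the locus. Within 500 kb of its start 6 other genes were tested, and all lie on the side of lower coordinates. Their log2 differences in DMSO were -0.57 for IGFBP2, -0.38 (SE 0.12) for RPL37A, -0.05 (SE 0.11) for SMARCAL1, 0.06 (SE 0.61) for RPL37A-DT, -0.77 (SE 0.19) for LINC01963 and -0.89 (SE 0.37) for ENSG00000279348. None came near the -6.59 of IGFBP5, whose start is 62.7 kb from that of IGFBP2.

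**Figure D5:**
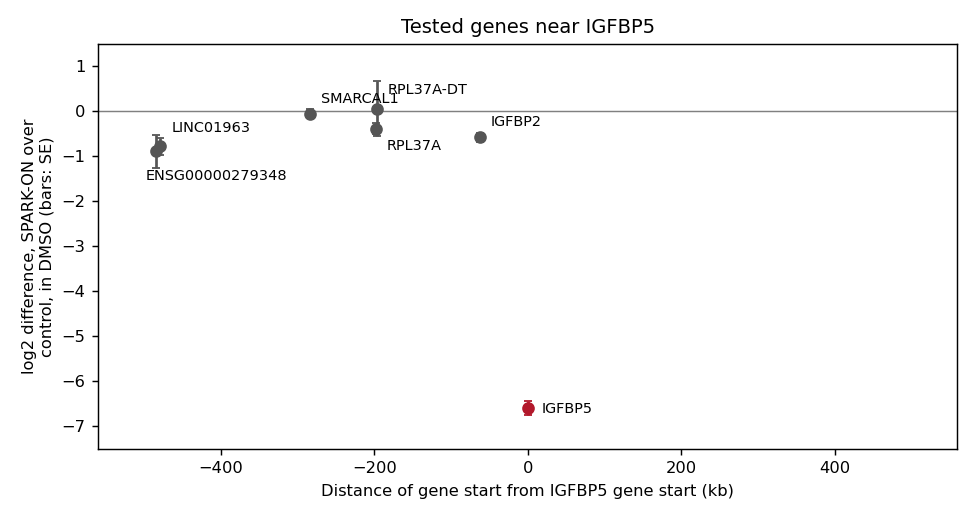
Log2 difference, SPARK-ON over control in DMSO (n = 3 each), with SE, against distance from the IGFBP5 start (kb), for IGFBP5 and the 6 other tested genes within 500 kb. IGFBP5 sits at -6.59 and the others between -0.89 and 0.06.

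Across the 11 libraries, the genes whose log2 CPM ran most like each binding protein were found by Pearson's r among 10633 genes with a mean of at least 5 CPM. These r are descriptions, since 66.9% of the variance over the 11 libraries lies on the first principal component, which separates the lines, and both genes of a pair are read from the same libraries at the same depth. For IGFBP5 they were PMEPA1 (r = 0.999), SOX9 (0.998) and PRSS35 (0.998). PMEPA1 had 61.6 to 81.8 CPM in SPARK-ON and 429 to 457 CPM in control libraries, and its r with IGFBP5 was 0.875 within the SPARK-ON line and 0.698 within the control line. SOX9 had 0.808 within the SPARK-ON line and 0.591 within the control line, and PRSS35 had 0.887 within the SPARK-ON line but -0.561 within the control line. For IGFBP4 they were NPTXR (0.995), ARHGEF16 (0.994) and PALM (0.993). For IGFBP7 they were SH3GL3 (0.999), BLVRB (0.998) and S100A4 (0.998), and the r of SH3GL3 with IGFBP7 was 0.912 within the SPARK-ON line and 0.983 within the control line. IGFBP2 ran most like RPS20 (0.990), RPL7 (0.988) and RAB9A (0.988), of which RPS20 and RPL7 encode ribosomal proteins. IGFBP6 ran most like MED9 (0.973), ZC3H12A (0.966) and GLRX (0.965). IGFBP3, whose lines overlap, had the lowest values, with SLC38A9 (0.886), LMBRD1 (0.863) and MAMDC2 (0.848).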

How the data were processed

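PolyA-selected RNA of 11 SH-EP libraries was analysed. The authors deposited raw counts per gene, whole numbers without normalization, for 61533 genes. The submitters' processing notes name FastQC, fastp, HTSeq, edgeR and hg38. Versions, aligner, annotation and strand setting are not given in the sources used here. Another 3 columns bear names that match no label and were left out, so the planned comparison with baseline SH-EP cells is not analysed here.

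The analysis used edgeR 4.0.16 in R 4.3.3. The function filterByExpr with a minimum count of 10 kept 16056 genes, TMM scaled the libraries, and glmQLFit took the 4 groups as a one-way layout, leaving 7 residual degrees of freedom. The tests were those of glmQLFTest, two-sided, adjusted by Benjamini-Hochberg over the 16056 genes. CPM are relative to TMM-scaled library sizes, and CPM per kilobase divides by merged exons of GENCODE 29 on GRCh38. The SE is the log2 change over the root of F, and 95% intervals use the fit's total degrees of freedom. Log2 CPM for likeness and principal components used a prior count of 0.5. Intervals and floors cover the spread or counting error only. The procedure was tested on simulated counts. Gene symbols were found for 61369 identifiers.

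The binding proteins and the lists were chosen with earlier results of these data known. Named from the lists were IGF1, IGF2, IGF1R, IGF2R, INSR, PAPPA and IGFBP1, and in each contrast up to 8 genes with the smallest p among those called. INS, INS-IGF2, PAPPA2 and the genes called in the fit of the SPARK-ON libraries alone fall outside that rule and were named with their values known. Alternatives were RLE size factors, library size alone, no filter, a minimum count of 30, limma-voom 3.58.1, DESeq2 1.42.0, a replicate block and only the groups compared. Each library of the groups in a contrast was also left out in turn. The contrast averaged over lines, limma-voom with a weight per line and the omission of libraries from the SPARK-ON fit were added after seeing the data. Plots were made in Python 3.11.15 with matplotlib 3.10.9.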

Additional observations from a re-analysis of the deposited data

How the results depend on the processing

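Counts of called binding proteins were 0 under every alternative to the fit of 11 libraries, except that IGFBP4 was called in SPARK-ON cells when only the groups compared were fitted (1 of 6), in control cells by DESeq2 (1 of 6) and without a filter (1 of 6), and in the difference between lines by DESeq2 (1 of 6). The cause was not tested. In SPARK-ON cells the fit of only the groups compared called 2.6% of all genes. DESeq2 called 0.144% in control cells and 0.00895% in the difference, and edgeR without a filter called 0.0806% in control cells. With 1 library of the groups in a contrast left out of the fit of 11 at a time, the counts of called binding proteins stayed at 0. Omission of a library outside those groups was not tried. With 1 library left out of the 6 SPARK-ON libraries fitted alone, 0 to 2 binding proteins were called, beside 163 to 348 of all genes. They were IGFBP7 beside IGFBP4 without lenalidomide replicate 3, IGFBP3 alone without DMSO replicate 2 and IGFBP4 alone without DMSO replicate 3. Lenalidomide called 5 axis genes in SPARK-ON cells with only the groups compared (2.6% of all genes), and 2 with limma-voom weighted per line (0.666% of all genes). Averaged over lines it called 1 with DESeq2 (0.449% of all genes), and 0 to 1 without single libraries. The axis genes that differed between lines numbered 14 to 22 in DMSO (17 with all libraries) and 14 to 18 with lenalidomide (18 with all) when single libraries were left out, and 15 to 20 in DMSO and 17 to 22 with lenalidomide under the other alternatives. The difference of IGFBP3 between lines in DMSO, 0.10 with all libraries, turned to -0.052 without SPARK-ON DMSO replicate 2 and was 0.18 without SPARK-ON DMSO replicate 3. The IGFBP4 difference with lenalidomide was 2.19 by library size alone, a scaling under which the median of all genes was 0.10 in DMSO and 0.12 with lenalidomide, against 0.011 and 0.015 with TMM, and that of IGFBP7 was 1.74 without control lenalidomide replicate 2. The difference between lines in the response uses all 4 groups, so it has no value for only the groups compared. Over all genes, lenalidomide called 11 in SPARK-ON cells, against 381 with only the groups compared and 45 with DESeq2, and 7 in control cells, against 0 and 24.

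Replicate numbers showed no pairing of the samples in SPARK-ON cells. Same-numbered lenalidomide and DMSO libraries had deviations correlated at 0.0042, 0.0089 and 0.016 in SPARK-ON cells and at -0.13 and -0.098 in control cells. The 2 control lenalidomide libraries deviate from their mean as mirror images, so the control values cannot show whether numbers pair. Their column names also skip a number, so their replicate numbers may not match those in DMSO. With the replicate block 0 binding proteins were called in each lenalidomide contrast, 15 axis genes differed between lines in DMSO and 17 with lenalidomide, and calls over all genes were 2 in SPARK-ON and 1 in control cells. Depth limits IGFBP5 in SPARK-ON cells, where 20 to 40 reads a library were counted.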
